A study of Homo sapiens with 6 samples.

Results

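The 10 genes encoding heat shock factor target chaperones and co-chaperones described here were followed in gastric cancer cells that overexpress the 3′ untranslated region (3′-UTR) of *FN1*, the fibronectin 1 gene. The members were *HSPA1A*, *HSPA1B*, *HSPA8*, *HSPH1*, *DNAJB1*, *BAG3*, *HSP90AA1*, *HSPB1*, *HSPD1* and *HSPE1*, named as known heat shock genes at a time when earlier results of these data were already known, and all 10 were found among the 39739 gene rows of the expression tables. RNA sequencing was done on HGC27, a human gastric cancer cell line, in 2 groups of 3 libraries each. HGC27-FN1 3′-UTR cells carried a lentiviral construct for the *FN1* 3′-UTR and were selected as a stable line with puromycin, and HGC27-control cells were the control. Each group is 1 line, and whether the control line carried an empty vector or went through the same selection was not given in the sources used here, so the effects of the *FN1* 3′-UTR and of infection and selection cannot be told apart. The comparison asks which transcripts differ between these lines. Expression was given as RPKM, assigned reads scaled per kilobase of transcript and per library total, which scales a gene by its length and each library by its depth.

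Chaperones of the heat shock response bind unfolded or nascent proteins and keep them from aggregating. Their transcription is driven largely by heat shock factor 1 (HSF1), which is held inactive in unstressed cells, trimerises when unfolded proteins accumulate, and binds heat shock elements made of inverted repeats of a short GAA unit. Cancer cells often express these chaperones at a high level without any heat stress, and constitutive chaperones such as those encoded by *HSPA8* and *HSP90AB1* are abundant in most cells.

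The inducible HSP70 genes showed the largest difference among the members. Transcripts of *HSPA1A* and *HSPA1B* were about 50.6% and 50.3% lower in HGC27-FN1 3′-UTR cells, and *HSPA8*, *BAG3*, *HSP90AA1* and *DNAJB1* were lower by 16.6% to 21.6%. The small heat shock protein gene *HSPB1*, the HSP110 gene *HSPH1* and the mitochondrial chaperonin genes *HSPD1* and *HSPE1* did not pass the test. No member was higher.

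Runs of heat shock element units near the members are shown because heat shock elements are the feature by which heat shock factors recognise these genes. RefSeq promoter windows of 300 bases (250 before and 50 after each transcription start, build GRCh38.p14) were searched for alternating GAA and TTC units with 2 bases between neighbours, that is GAANNTTC or TTCNNGAA, each of which reads the same on both strands. All 10 members matched the promoter table, with 14 windows between them. A run of at least 2 units was found in 8 of the 14 windows, which belong to 7 members, against 13.5% of all 35116 windows in the table. A run of 3 or more units, in which both short motifs overlap, was found in 3 of the 14 windows, against 0.490% of all windows. These 3 belong to *HSPA8*, *HSP90AA1* and *HSPD1*. The stretches below run 5′ to 3′ on the strand of the gene, and the capitals mark the GAA and TTC units.
HSPA1A: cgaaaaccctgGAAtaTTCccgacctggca
HSPA1B: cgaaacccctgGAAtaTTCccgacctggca
HSPA8, far site: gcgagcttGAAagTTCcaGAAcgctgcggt
HSPA8, near site: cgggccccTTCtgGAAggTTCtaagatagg
DNAJB1, far site: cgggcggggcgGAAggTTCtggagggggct
DNAJB1, near site: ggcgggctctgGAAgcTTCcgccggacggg
DNAJB1, another start: ccgctcggccaGAAgcTTCtagcatgtctg
HSP90AA1, far site: gagggttcTTCcgGAAggTTCgggaggctt
HSP90AA1, near site: gttcgggaggcTTCtgGAAaaagcgccgcg
HSPB1: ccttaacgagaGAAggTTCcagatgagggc
HSPD1: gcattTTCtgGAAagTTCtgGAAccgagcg

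In GRCh38.p14 these stretches lie at chr6:31815426-31815455 on the plus strand for *HSPA1A* and chr6:31827622-31827651 on the plus strand for *HSPA1B*. Those of *HSPA8* lie at chr11:123062345-123062374 and chr11:123062170-123062199 on the minus strand, and those of *DNAJB1* at chr19:14518456-14518485, chr19:14518426-14518455 and chr19:14517918-14517947 on the minus strand. The overlapping stretches of *HSP90AA1* lie at chr14:102087111-102087140 and chr14:102087094-102087123 on the minus strand, that of *HSPB1* at chr7:76302480-76302509 on the plus strand, and that of *HSPD1* at chr2:197500061-197500090 on the minus strand.

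The centres of these sites were 102 bases before the start in both *HSPA1A* and *HSPA1B*. They were 224 and 49 bases before it in *HSPA8* and 178 bases before it in *HSPB1*. In *HSP90AA1* they were 82 and 64 bases before 1 of its 2 RefSeq starts, and the window of the other start held no site. In *DNAJB1* they were 74 and 44 bases before one start and 4 bases after another, and its remaining window held no site. The promoter windows of *HSPA1A* and *HSPA1B* were equal at 277 of 299 compared bases (92.6%). The 4 alternating units of *HSPD1* were the longest run of any member and lay 236 bases before one of its RefSeq starts, 198 bases after its other start and 303 bases before the start of *HSPE1*, the neighbouring gene read in the opposite direction. No run of at least 2 units lay within the windows of *HSPE1*, *HSPH1* and *BAG3*. The 6 members with lower expression thus included *BAG3*, with no such run in its window, and the 4 that did not pass the test included *HSPD1*, with the longest. A match of letters is a description of the sequence, and binding was not measured.

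**Figure D1:**
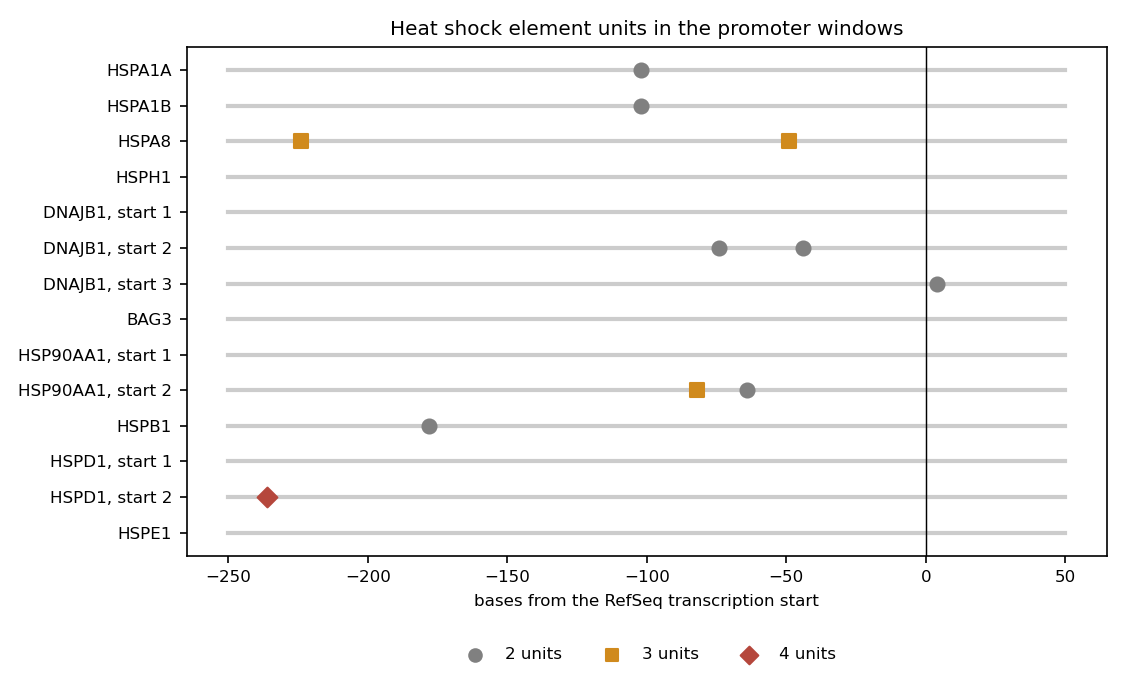
Positions of runs of alternating heat shock element units in the 300-base RefSeq promoter windows of the 10 members, in bases from the transcription start (x axis), with 1 line per annotated start. The *HSPA1A* and *HSPA1B* sites both sit 102 bases before the start, and the *HSPH1*, *BAG3* and *HSPE1* windows hold no run of at least 2 units.

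Sequencing depth was enough to measure each member in each library. Reads assigned to genes ranged from 16357085 to 29202046 per HGC27-FN1 3′-UTR library and from 22332816 to 37037532 per HGC27-control library, and the lowest member count was 443 reads (*BAG3*, HGC27-FN1 3′-UTR replicate 1). *FN1* itself, counted over the whole gene and so without separating the 3′-UTR, stood at 0.777, 0.745 and 0.819 RPKM against 0.543, 0.474 and 0.532 RPKM in control cells, a log2 fold change of 0.52 (adjusted p = 0.0292, limma). The labelled cell type was checked against marker genes. Transcripts of *VIM*, the mesenchymal filament vimentin, averaged 303 RPKM in control cells, while 5 of 6 epithelial markers (*EPCAM*, *CDH1*, *KRT8*, *KRT18* and *KRT19*) were higher in HGC27-FN1 3′-UTR cells, their list summing to 18.4 to 27.3 RPKM against 2.93 to 3.30 RPKM. Of 5 fibroblast markers *COL3A1* and *LUM* were higher and none lower (sums 126 to 129 RPKM against 88.8 to 99.0 RPKM), and of 4 mesenchymal markers tested *SNAI2* was higher (sums 312 to 338 RPKM against 306 to 344 RPKM). Of 3 leukocyte markers tested *LYZ* was higher (sums 6.55 to 7.72 RPKM against 3.05 to 3.57 RPKM), while the defining leukocyte gene *PTPRC* had 6 and 7 reads in the 2 groups and the endothelial gene *PECAM1* was at 0 in every library. The part of these marker differences in the chaperone results was not tested, and in bulk RNA fewer cells of a type and less RNA per cell cannot be told apart.

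Across all tested genes, 1715 of 23299 (7.36%) were lower and 1310 (5.62%) were higher in the overexpressing line when called at an adjusted p under 0.05 (limma on log2(RPKM + 0.1), Benjamini-Hochberg). With median-ratio scaling of the libraries the split was 1330 lower and 1696 higher. Beside that background, 6 of the 10 members were lower and 0 were higher, while 4 did not pass the test (5 lower and 0 higher with median-ratio scaling). Members are abundant transcripts, and the share called lower was somewhat larger among abundant transcripts: among the 4566 genes with a mean of at least 10 RPKM, a limit chosen after the values had been seen, 10.4% were lower. In 7 members the lowest control library lay above the highest HGC27-FN1 3′-UTR library, as in 21.7% of all tested genes. The median log2 fold change was -0.27 over the members and -0.04 over all genes tested. By the criteria for differentially expressed genes (DEGs), taken here as an absolute log2 fold change above 1 with an unadjusted p under 0.05 since the study's methods do not give the log base or any adjustment, *HSPA1A* and *HSPA1B* were downregulated DEGs, against 0.815% of all tested genes, and both lay just past that limit.

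**Figure D2:**
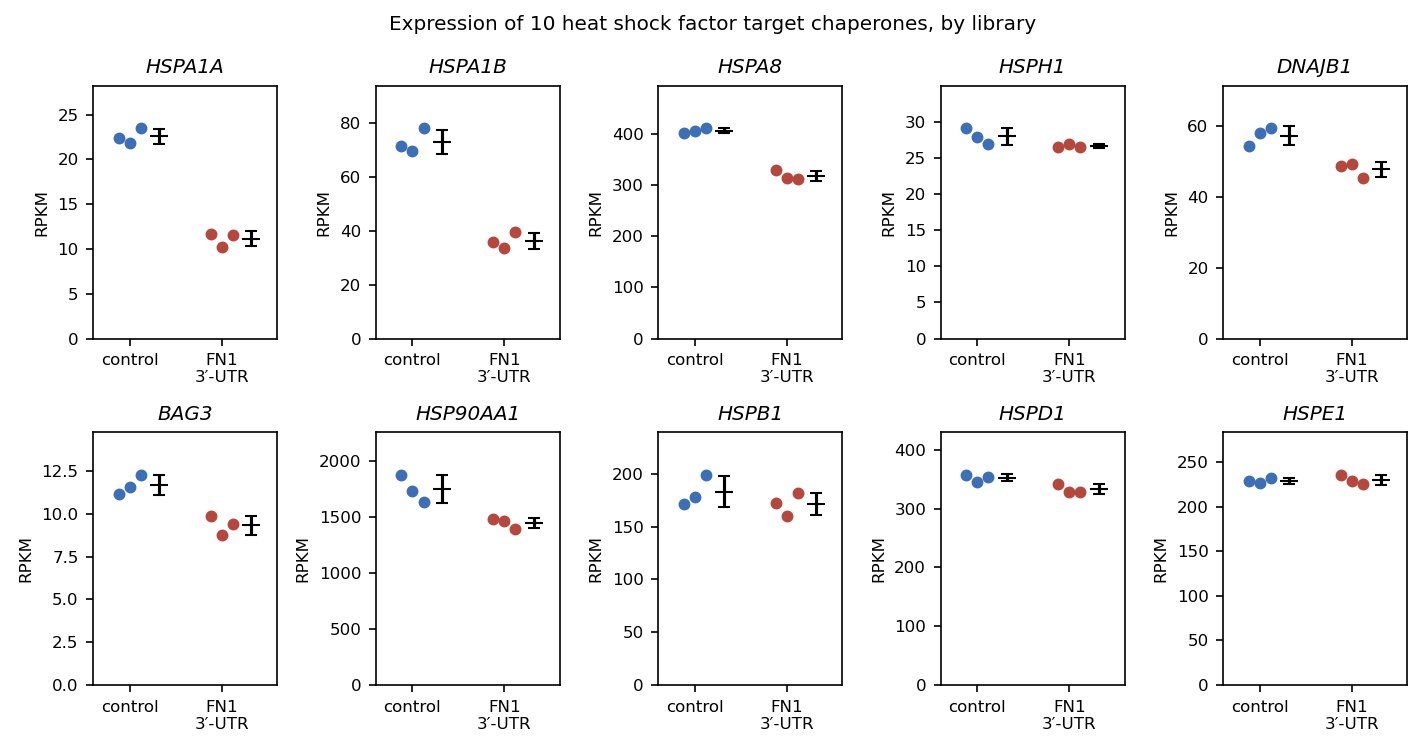
Expression of each member in RPKM (y axes, from 0) in the 3 HGC27-control libraries (blue) and the 3 HGC27-FN1 3′-UTR libraries (red), with replicates 1 to 3 from left to right and the mean ± SD in black. *HSPA1A* falls from 21.8 to 23.5 RPKM in control libraries to 10.2 to 11.7 RPKM, while *HSPE1* overlaps between the groups.

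Among the HSP70 members, *HSPA1A* and *HSPA1B* encode the same stress-inducible HSP70 protein from neighbouring genes on chromosome 6 (chr6:31815464-31817946 and chr6:31827735-31830255, plus strand, GRCh38). *HSPA1A* stood at 11.7, 10.2 and 11.6 RPKM in HGC27-FN1 3′-UTR replicates 1 to 3 and at 22.3, 21.8 and 23.5 RPKM in HGC27-control replicates 1 to 3. Every HGC27-FN1 3′-UTR library was below every control library, and no library stood apart from its group. The *HSPA1A* means were 11.1 ± 0.840 RPKM and 22.6 ± 0.851 RPKM (SD over 3 libraries a group), and limma gave a log2 fold change of -1.01 (SE 0.062, 95% confidence interval -1.16 to -0.86, adjusted p = 7.39e-04, limma).

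*HSPA1B* stood at 35.9, 33.5 and 39.4 RPKM in HGC27-FN1 3′-UTR cells and at 71.3, 69.5 and 78.0 RPKM in control cells. The groups again did not overlap, and the highest library of each group was replicate 3. In limma *HSPA1B* had a log2 fold change of -1.01 (SE 0.071, 95% confidence interval -1.18 to -0.84, adjusted p = 0.00111, limma). The genes are near-identical copies: 71.3% of the 50-base windows of the annotated *HSPA1A* transcript also occur in *HSPA1B*, so that their reads can be divided between the rows in a way that depends on the read counting. Their summed expression does not depend on that division between them, and stood at 47.6, 43.7 and 51.0 RPKM against 93.6, 91.3 and 102 RPKM, a log2 difference of -1.01. The sum does not settle reads shared with other genes, or reads matching both copies if the counting left those out. In that case the levels of both rows and of the sum would be too low. Of the windows, 33.2% of *HSPA1A* and 35.3% of *HSPA1B* also occur in *AL671762.1*. An exact two-sided permutation test of that sum over the 6 libraries gave p = 0.1, the smallest value that 3 libraries against 3 allow.

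*HSPA8* encodes HSC70, the constitutive cytosolic HSP70 that folds new proteins and uncoats clathrin vesicles (chr11:123057489-123063230, minus strand). *HSPA8* stood at 329, 313 and 312 RPKM in HGC27-FN1 3′-UTR cells and at 401, 405 and 411 RPKM in control cells. The control libraries lay within 10 RPKM of each other, and all 3 were above the other group. The difference was smaller than that of the inducible genes, with a log2 fold change of -0.35 (SE 0.032, 95% confidence interval -0.43 to -0.27, adjusted p = 0.00265, limma). *HSPA1A*, *HSPA1B* and *HSPA8* were the members whose calls held in all 14 alternative analyses.

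*HSPH1* encodes HSP110, a nucleotide exchange factor that releases substrates from HSP70 (chr13:31134974-31162388, minus strand). It stood at 26.6, 27.0 and 26.5 RPKM in HGC27-FN1 3′-UTR cells and at 29.2, 27.9 and 26.9 RPKM in control cells. Control replicate 3 fell within the narrow range of the other group. Its log2 fold change was -0.07 (95% confidence interval -0.16 to 0.02, adjusted p = 0.259, limma), so a decrease as large as that of *HSPA8* lay outside the interval.

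The HSP70 co-chaperone genes *DNAJB1* and *BAG3* were lower than in control cells. *DNAJB1* encodes HSP40, the J-domain protein that delivers substrates to HSP70 and stimulates its ATPase (chr19:14514770-14529770, minus strand). It stood at 48.8, 49.3 and 45.3 RPKM in HGC27-FN1 3′-UTR cells and at 54.3, 58.0 and 59.5 RPKM in control cells, so the groups were separate. *DNAJB1* had a log2 fold change of -0.26 (SE 0.049, 95% confidence interval -0.38 to -0.14, adjusted p = 0.0214, limma). *BAG3*, a nucleotide exchange factor that links HSP70 to selective autophagy (chr10:119651370-119677819, plus strand), was the least abundant member. It stood at 9.86, 8.75 and 9.40 RPKM in HGC27-FN1 3′-UTR cells and at 11.1, 11.6 and 12.3 RPKM in control cells. The *BAG3* groups were separate too, with a log2 fold change of -0.32 (SE 0.059, 95% confidence interval -0.46 to -0.18, adjusted p = 0.0203, limma). These calls were close to the threshold: that of *DNAJB1* was lost without HGC27-FN1 3′-UTR replicate 1 (adjusted p = 0.0597), without its replicate 3 (0.0523), and without HGC27-control replicate 2 (0.0821) or 3 (0.0597). That of *BAG3* was lost without HGC27-FN1 3′-UTR replicate 2 (adjusted p = 0.0544) or 3 (0.0572) and without HGC27-control replicate 2 (0.0732) or 3 (0.0552).

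*HSP90AA1* encodes the stress-inducible cytosolic HSP90 alpha, which matures kinases and steroid receptors (chr14:102080738-102139699, minus strand). It was the most abundant member and accounted for 63.1% to 66.8% of all reads of the 10 members. *HSP90AA1* stood at 1479, 1465 and 1391 RPKM in HGC27-FN1 3′-UTR cells and at 1877, 1734 and 1629 RPKM in control cells. Every control library was above the other group, but the control libraries themselves differed by more than the gap between the groups. The log2 fold change was -0.27 (SE 0.061, 95% confidence interval -0.42 to -0.12, adjusted p = 0.0364, limma), and the call was lost when any library other than HGC27-control replicate 3 was left out (adjusted p from 0.0654 to 0.110). *HSP90AB1*, the constitutive HSP90 beta and the closest paralogue of the member, averaged 2167 RPKM and 2168 RPKM in the 2 groups (log2 fold change 0.0006, adjusted p = 0.995, limma).

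*HSPB1* encodes HSP27, a small heat shock protein that holds unfolded proteins without using ATP (chr7:76302544-76304295, plus strand). It stood at 173, 160 and 182 RPKM in HGC27-FN1 3′-UTR cells and at 171, 179 and 199 RPKM in control cells, and the groups overlapped. It had the widest interval of the members that did not pass, with a log2 fold change of -0.09 (95% confidence interval -0.26 to 0.08, adjusted p = 0.438, limma).

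The mitochondrial chaperonin is formed by HSP60, encoded by *HSPD1* (chr2:197486581-197516737, minus strand), and its lid HSP10, encoded by *HSPE1* (chr2:197499994-197503457, plus strand), which share a bidirectional promoter region. *HSPD1* stood at 342, 327 and 328 RPKM in HGC27-FN1 3′-UTR cells and at 358, 346 and 353 RPKM in control cells. The groups did not overlap, but the difference was small (log2 fold change -0.08, 95% confidence interval -0.16 to -0.01, adjusted p = 0.139, limma). *HSPE1* stood at 236, 229 and 225 RPKM against 228, 226 and 232 RPKM in control cells. These groups overlapped, and the log2 fold change was 0.006 (95% confidence interval -0.07 to 0.08, adjusted p = 0.922, limma). Their rows overlap over 281 bases on opposite strands, and the *HSPE1* row also shares 192 same-strand bases with the read-through gene *HSPE1-MOB4*, whose row held 69156 reads beside 72561 reads of *HSPE1*. The library kit marked strand, but whether the counting used it was not stated, so reads in these overlaps cannot be told apart by gene.

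**Figure D3:**
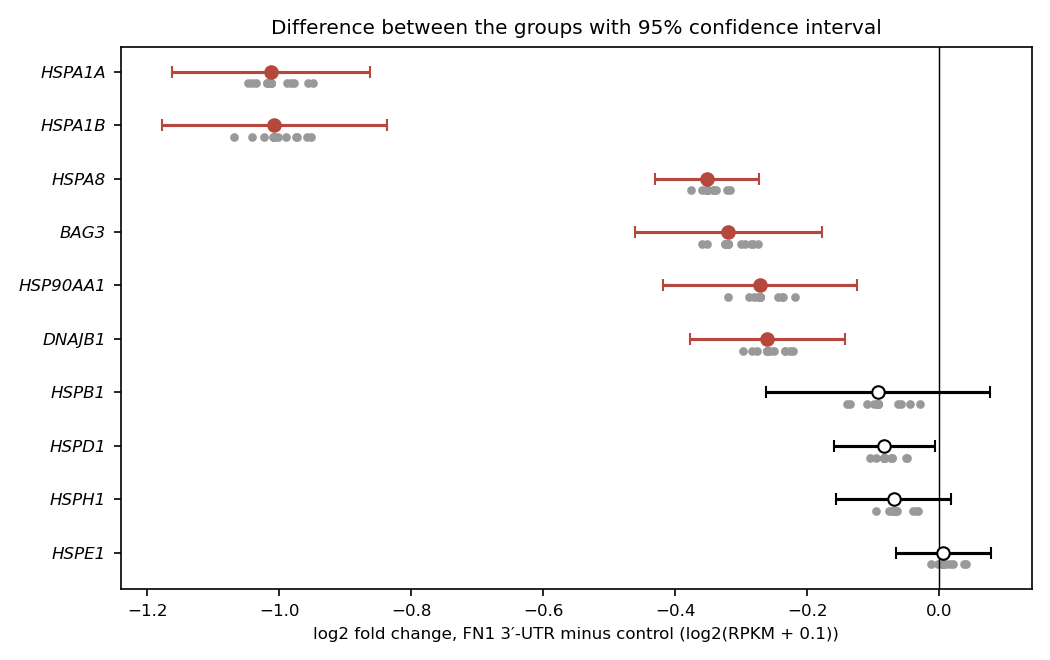
Log2 fold change of each member, HGC27-FN1 3′-UTR minus HGC27-control on the log2(RPKM + 0.1) scale (x axis), with its 95% confidence interval. Filled red points passed an adjusted p under 0.05, open points did not, and the small grey points are the 14 alternative analyses. *HSPA1A* and *HSPA1B* lie between -1.07 and -0.95 in every alternative, apart from all other members.

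The order of the members by level changed at 2 places between the groups. In HGC27-control cells the mean levels ran from *HSP90AA1* (1747 RPKM) through *HSPA8* (406), *HSPD1* (352), *HSPE1* (229), *HSPB1* (183), *HSPA1B* (73.0), *DNAJB1* (57.3), *HSPH1* (28.0) and *HSPA1A* (22.6) to *BAG3* (11.7), and no neighbours in that order overlapped. In HGC27-FN1 3′-UTR cells *HSPD1* (333 RPKM) stood above *HSPA8* (318 RPKM), with overlapping libraries, and *DNAJB1* (47.8 RPKM) stood above *HSPA1B* (36.3 RPKM), without overlap. The places of *HSPA1A* and *HSPA1B* in this order depend on how the counting treated reads that match both copies. Together the 10 members took 1.15% to 1.21% of assigned reads in HGC27-FN1 3′-UTR cells and 1.36% to 1.48% in control cells.

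Ratios within a library do not depend on the scaling between libraries, and they showed which partners moved apart. *HSPA1B* to *HSPA1A* was 3.08 to 3.40 in HGC27-FN1 3′-UTR libraries and 3.19 to 3.32 in control libraries, and these ranges overlapped. *HSPA8* was 6.11 to 7.17 times the summed *HSPA1A* and *HSPA1B* in HGC27-FN1 3′-UTR cells and 4.05 to 4.43 times in control cells. The size of that multiple depends on how the counting treated reads that match both *HSPA1A* and *HSPA1B*. *HSPA8* to its exchange factor *HSPH1* was 11.6 to 12.4 against 13.8 to 15.3. The ratio of *HSP90AA1* to *HSP90AB1* was 0.650 to 0.686 against 0.795 to 0.816, which is a tighter separation than that of *HSP90AA1* alone. *HSPD1* to *HSPE1* was 1.43 to 1.46 against 1.52 to 1.57. All of these ratios except the first were separate between the groups, and each of those had p = 0.1 in an exact two-sided permutation test, the smallest possible with 3 libraries against 3 (0.12 after Benjamini-Hochberg adjustment over 6 comparisons, the share of reads included).

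**Figure D4:**
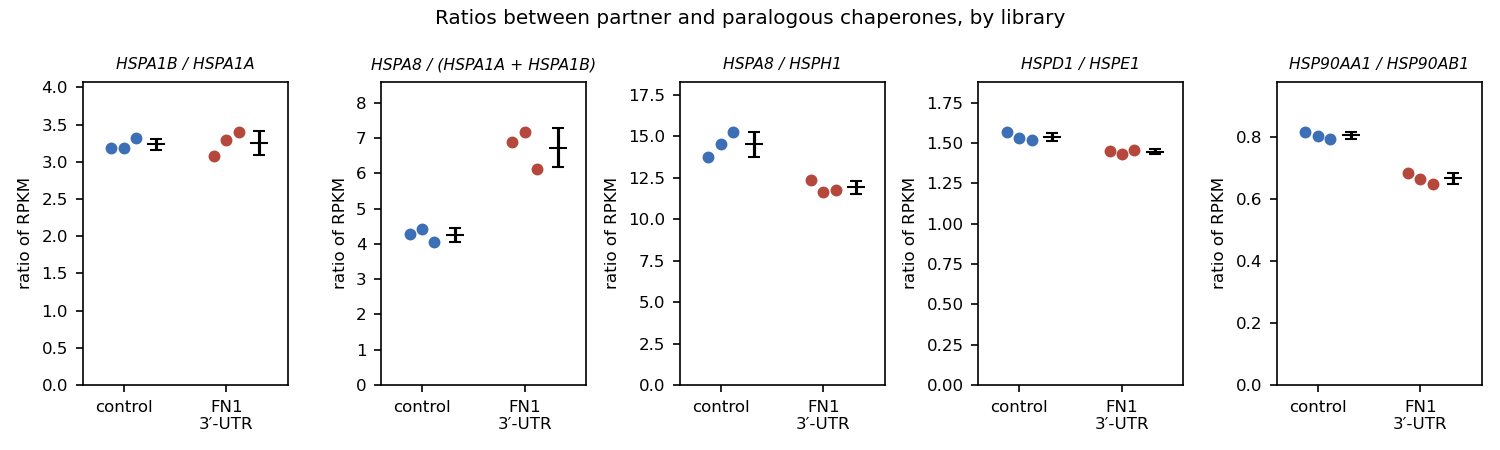
Ratio of RPKM values between paralogous or partner chaperones (y axes, from 0) in each HGC27-control (blue) and HGC27-FN1 3′-UTR (red) library, replicates 1 to 3 from left to right, with mean ± SD in black. The *HSPA1B* to *HSPA1A* ratio overlaps between the groups, and *HSP90AA1* to *HSP90AB1* drops from 0.795 to 0.816 in control libraries to 0.650 to 0.686.

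The regulators of the response did not pass the test. Of 5 genes of heat shock factors and their binding protein, 4 could be tested and 0 passed in limma, with 0 at an unadjusted p under 0.05 and 0 with voom on recovered reads. *HSF1* stood at 4.91, 4.69 and 4.81 RPKM in HGC27-FN1 3′-UTR cells and at 4.85, 5.31 and 5.60 RPKM in control cells (log2 fold change -0.12, adjusted p = 0.237, limma). Log2 fold changes were -0.06 for *HSF2*, -0.05 for *HSF4* and -0.07 for *HSBP1*, a negative regulator that binds HSF1 trimers, and *HSF5* had 1 read in all. Transcript level says nothing of the activation of HSF1, which was not measured.

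Among the other chaperone and heat-inducible genes, 117 of 123 listed genes were tested. Of these, 20 were higher (17.1%, against 5.62% of all tested genes), 9 were lower (7.69%, against 7.36%) and 88 did not pass, with a median log2 fold change of 0.01 against -0.04 over all genes. Together 29 genes were called, and 8 to 18 when a library was left out, with the range given for each list below. With median-ratio scaling 28 listed genes were called, and 1696 of all 23294 tested genes were higher. The share that was higher was not taken among abundant genes alone. The lists overlap in part, and their counts follow by role.

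Of 12 other HSP70 and HSP110 genes tested, 3 were higher and 2 were lower (1 to 3 called when a library was left out). *HSPA6*, the strictly inducible HSP70B′, was lower (log2 fold change -0.80, adjusted p = 0.0469, limma) but barely expressed, at 0.180, 0.104 and 0.159 RPKM against 0.321, 0.370 and 0.296 RPKM, and rested on 24 and 70 reads. *HSPA12A*, a distant HSP70 relative, was also lower (-0.41). In contrast *HSPA5*, the HSP70 of the endoplasmic reticulum known as BiP, was higher, at 175, 177 and 178 RPKM against 133, 129 and 144 RPKM (log2 fold change 0.38, adjusted p = 0.00512, limma). *HYOU1* (0.13), the HSP110 of the same compartment, and *HSPA4* (0.17), a cytosolic HSP110, were higher by less and are named after their values were seen. The mitochondrial *HSPA9*, or mortalin, had a log2 fold change of -0.05 and did not pass.

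The other HSP90 genes and HSP90 co-chaperones gave 3 higher and 0 lower of 16 tested (1 to 3 called when a library was left out). *HSP90B1*, or GRP94, the HSP90 of the endoplasmic reticulum, stood at 386, 396 and 377 RPKM against 288, 284 and 281 RPKM, and the groups did not overlap (log2 fold change 0.44, adjusted p = 0.00108, limma). The kinase co-chaperone *CDC37* (0.16) and *CHORDC1* (0.25) were the others, named after their values were seen. Among 40 other J-domain genes tested, 4 were higher and 3 lower (1 to 4 called when a library was left out). *DNAJB11* (0.31), which delivers substrates to BiP, and the mitochondrial *DNAJC15* (0.76) were higher, while *DNAJB2* (-0.39) and the clathrin-uncoating auxilin *DNAJC6* (-0.47) were lower. *DNAJA1*, a heat-inducible cytosolic J-domain gene, had a log2 fold change of 0.10 (adjusted p = 0.134, limma). Of the 9 other BAG and HSP70 co-chaperone genes 0 passed in limma (0 to 1 called when a library was left out). At an unadjusted p under 0.05 there were 3, and 1 was called by voom on recovered reads. Of the 15 CCT chaperonin and prefoldin genes 4 were higher by 0.13 to 0.23 on the log2 scale (*CCT2*, *CCT4*, *CCT5* and *CCT8*, named after their values were seen) with 0 lower. That CCT count was 0 without HGC27-FN1 3′-UTR replicate 1 or 2 or HGC27-control replicate 1 or 2, and 2 without replicate 3 of either group.

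Of 6 other small heat shock genes tested, 3 were higher and 1 was lower (3 to 4 called when a library was left out), with a median log2 fold change of 0.81. *CRYAB*, or alpha-B crystallin, which is itself heat-inducible, stood at 10.5, 9.31 and 10.4 RPKM in HGC27-FN1 3′-UTR cells and at 5.03, 4.78 and 5.53 RPKM in control cells, with a log2 fold change of 0.97 (adjusted p = 0.00136, limma). *HSPB3*, best known from muscle, stood at 11.9, 9.40 and 10.1 RPKM against 4.0, 4.26 and 4.48 RPKM (log2 fold change 1.28, adjusted p = 0.00126, limma). *HSPB7* was higher (0.66) and *HSPB6* was lower (-0.45), while *HSPB8*, the partner of BAG3 in selective autophagy, had a log2 fold change of 0.03. *HSPB2*, named after its values were seen, averaged 2.03 RPKM against 1.01 RPKM in control cells without overlap, but did not pass. The *HSPB2* row lies within the span of *CRYAB* on the opposite strand, and bases shared between these rows were not counted. All of these were far less abundant than *HSPB1*.

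**Figure D5:**
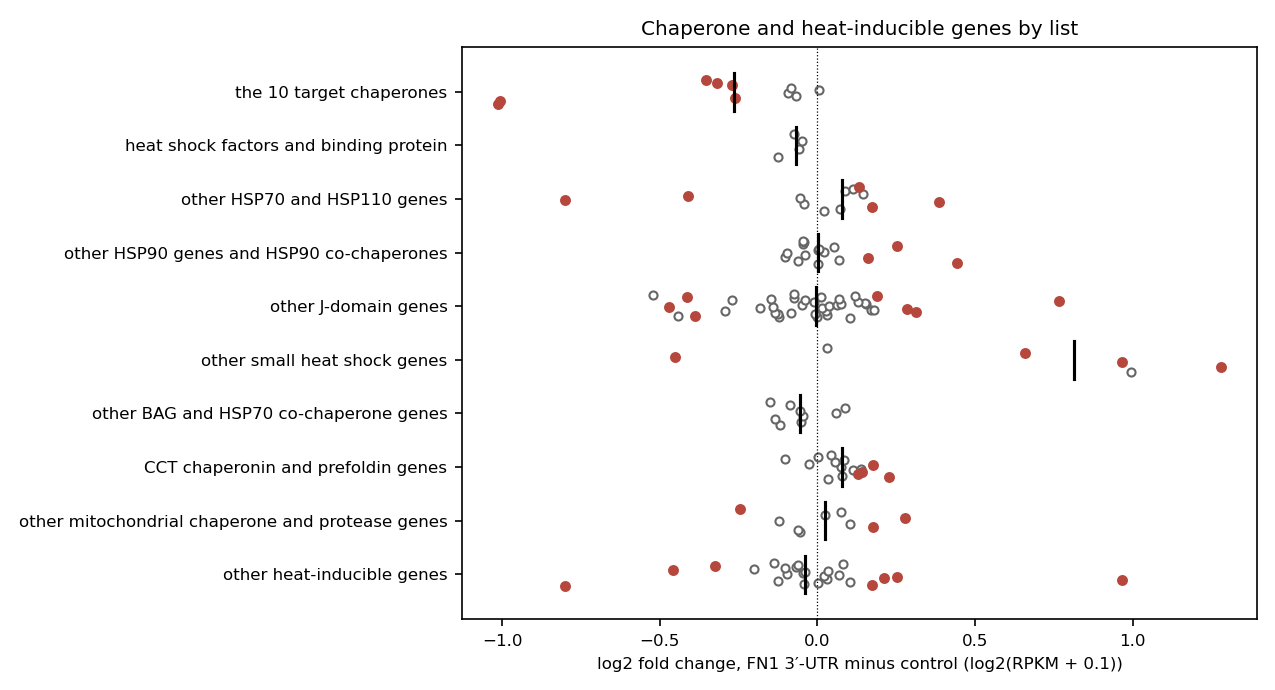
Log2 fold change, HGC27-FN1 3′-UTR minus HGC27-control (x axis, log2(RPKM + 0.1) scale), of each tested gene of the members and of the other chaperone and heat-inducible gene lists. Filled red points passed an adjusted p under 0.05 and black bars are list medians, which are -0.27 for the 10 members and 0.81 for the other small heat shock genes.

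Of 9 other mitochondrial chaperone and protease genes, 2 were higher (*GRPEL1*, 0.18, and *CLPB*, 0.28) and the protease gene *LONP1* was lower (-0.25), all named after their values were seen (1 to 3 called when a library was left out). The other heat-inducible genes gave 4 higher, 3 lower and 17 not passing of 24 (2 to 4 called when a library was left out), with a median log2 fold change of -0.04. The lower ones were *HSPA6*, *ZFAND2A* and *JMJD6*. *ZFAND2A*, an arsenite-inducible proteasome adaptor that is a known HSF1 target, stood at 3.91, 3.63 and 3.72 RPKM against 5.40, 4.87 and 5.34 RPKM, with separate groups (log2 fold change -0.46, adjusted p = 0.00718, limma). *JMJD6* had a log2 fold change of -0.32 (adjusted p = 0.0251, limma). The higher ones were *CRYAB*, *SERPINH1* (0.21), the collagen chaperone HSP47, *CHORDC1* and *HSPA4*.

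Rows named after a member hold pseudogenes and, for *HSPE1*, the read-through gene *HSPE1-MOB4*. The 21 rows named after *HSPE1* held 70726 reads, 97.5% of the reads of *HSPE1*, nearly all in *HSPE1-MOB4*. Rows named after other members amounted to 0.421% of the reads of *HSPA8*, 2.09% of those of *HSPD1*, 0.853% of those of *HSPB1* and 0.0607% of those of *DNAJB1*. The log2 fold change of *HSPA8P5* was -0.46 (adjusted p = 0.0428, limma), of the same sign as that of its parent gene. Of the 50-base windows in the annotated transcripts, 8.23% of *HSPA8*, 14.0% of *HSP90AA1*, 18.4% of *HSPD1* and 22.7% of *HSPE1* occurred in another gene, and none of *HSPH1* or *BAG3*, whose counts are therefore the least affected by reads with several possible origins.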

How the data were processed

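Strand-specific mRNA libraries were made from total RNA of HGC27 cells, 3 HGC27-FN1 3′-UTR and 3 HGC27-control. Per the submitters' processing notes, Trimmomatic 0.36, STAR 2.5.3a and featureCounts of Subread 1.5.1 were used with GRCh38; the strand and multi-mapping settings of the counting were not given in the sources used here. The authors deposited RPKM values per gene with gene length and position. Multiplying RPKM by length gave whole reads for 100% of values (tolerance 0.05), from which depth was taken.

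Genes with at least 0.1 RPKM in 3 or more libraries (23299) were tested as log2(RPKM + 0.1) with limma 3.58.1 (R 4.3.3; group only, moderated with a variance trend, two-sided, Benjamini-Hochberg over all tested genes); fold changes on this scale understate those of low genes. The pipeline was tested on simulated data. Groups and replicate numbers came from the sample titles. Nothing states that replicates were separate cultures, so p-values measure only the spread between these libraries, which may be technical. Libraries of a group differed by more than sampling noise. Same-numbered libraries did not deviate together over all tested genes (correlations 0.0024, 0.0211 and 0.0103), so they were not treated as pairs. The replicate block gave a smaller SE for HSPA1A, HSPA1B (0.031 against 0.071), HSPB1, HSPD1 and HSP90AA1. It gave a larger SE for the other members, such as DNAJB1 (0.054 against 0.049). The members and gene lists were chosen with earlier results of these data known. Besides the members, the heat shock factors and FN1, each list contributed up to 4 genes with the smallest adjusted p among those under 0.05 with an absolute log2 fold change of at least 0.3, plus HSP90AB1, HSPA5, HSPA6, HSPA9, DNAJA1, CRYAB, HSPB8 and SERPINH1; rows named after members were limited to the 2 with the most reads. Ratios and the summed expression of HSPA1A and HSPA1B were compared with exact permutation tests. Promoter sequences are from RefSeq (GRCh38.p14), and shared 50-base windows from GENCODE transcripts. Alternatives were other pseudocounts, filters, scaling and variance priors, limma voom on recovered reads, a replicate block, and leaving out each library.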

Additional observations from a re-analysis of the deposited data

How the results depend on the processing

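The decreases of *HSPA1A*, *HSPA1B* and *HSPA8* kept their direction and their calls in all 14 alternatives, with log2 fold changes of -1.05 to -0.95, -1.07 to -0.95 and -0.38 to -0.32. *BAG3* kept its call in 9, *DNAJB1* in 8 and *HSP90AA1* in 5. Leaving out 1 library at a time, 3 to 5 members, 971 to 1880 of all genes and 8 to 18 pathway genes were called, fewer than the 6, 3025 and 29 with all libraries, in fits with fewer samples. With the replicate block 3 members (*HSPA1A*, *HSPA1B* and *HSPA8*), 1162 genes and 10 pathway genes were called. The pairing was not supported by the labels or, over all tested genes, by correlations over 0.1. Each HGC27-FN1 3′-UTR library correlated best with the control library of its own number. HGC27-control replicate 1, however, correlated best with HGC27-FN1 3′-UTR replicate 3 (0.0084, against 0.0024 with replicate 1). Pathway genes called were 19 with no filter, 13 with no variance trend and 44 with voom on recovered reads, which called 5115 genes in all. HSP70 genes past the DEG criteria fell from 2 to 0 with a pseudocount of 1, median-ratio scaling or voom, and to 0 to 2 when a library was left out (0 without HGC27-FN1 3′-UTR replicate 2 or HGC27-control replicate 3). The log2 fold change of *HSPE1* ranged from -0.0127 to 0.0212 when a library was left out (-0.0127 without HGC27-FN1 3′-UTR replicate 1, -0.0025 without HGC27-control replicate 2), and was never called. Requiring 3 units left 3 members with a run of alternating units in a promoter window in place of 7. The log2 difference of the summed *HSPA1A* and *HSPA1B* ranged from -1.07 to -0.95 over its alternatives. The causes of the changes listed here were not tested.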

Other observations

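Immediate early genes, a separate group that many stresses and growth signals induce, gave 5 higher and 0 lower of 10 tested, beside 5.62% higher over all tested genes, with a median log2 fold change of 0.22. The count was 4 without HGC27-control replicate 3, 3 without any other single library, 3 with no filter, and 2 with the replicate block. It was also 3 with a mean RPKM of at least 1, a filter that *FOS* and *FOSL1* did not meet. The count stayed at 5 with other pseudocounts, median-ratio scaling or no variance trend, and was 6 with voom on recovered reads. *EGR1*, a zinc finger transcription factor, averaged 1.57 ± 0.0866 RPKM with the *FN1* 3′-UTR and 0.541 ± 0.0390 RPKM in control cells (SD over 3 libraries), with a fitted log2 fold change of 1.38 (adjusted p = 0.00109, limma). *JUN*, a subunit of AP-1, averaged 7.31 ± 0.508 RPKM and 3.98 ± 0.145 RPKM (log2 fold change 0.86, adjusted p = 0.00126, limma). *FOS* (1.02), *FOSL1* (1.01, named after its values were seen) and the phosphatase gene *DUSP1* (0.37) were the others that were higher. *FOS* was barely expressed, averaging 0.582 RPKM against 0.239 RPKM in control cells, and rested on 131 and 73 reads. *FOSL1* was as low, at 0.546 RPKM against 0.220 RPKM, on 71 and 36 reads. The others tested did not pass, among them *ATF3*, a stress-induced transcription factor with a log2 fold change of -0.24 (adjusted p = 0.0929, limma), named after its values were seen.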
